A study of Mus musculus with 4 samples.

Results

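Lcn2, Nos2, Tmem176a, Tmem176b, Saa3, Nfkbiz, Nfkbia, Tnfaip3, Tnfaip2 and Il6 were grouped here as genes of the inflammatory response of epithelial cells. These 10 genes were chosen by name from the 34685 gene identifiers of the expression table, and measured values of the same table entered the choice. Their levels and differences are therefore given as a description, and no test was run on them. The table covers 4 mouse oral cancer lines, each sequenced as 1 RNA library. AOC3 was grown from the primary oral tumor of mouse 3 and AOC3-LN from a lymph node metastasis, and AOC11 and AOC11-LN were the matching lines of mouse 11. The primary lines are labeled oral cancer and the -LN lines lymph node metastatic cancer.

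All 4 lines came from male C57BL/6 mice of the same supplier, whose buccal mucosa was painted with the carcinogen 7,12-dimethylbenzanthracene by cotton swab. The paper lists a longer period of painting for AOC11 and AOC11-LN than for AOC3 and AOC3-LN. The tumor cells were cultured in DMEM/F12 with fetal bovine serum, passed once under the skin of the flank of a mouse and depleted of fibroblasts before the lines were kept in culture. No line received a drug or a cytokine before RNA extraction as far as the sources state. Each line is a single established culture of a single mouse. A difference between a pair of lines therefore has no replicate check, and what belongs to a single culture cannot be told apart from what belongs to the tumor site or mouse that the line stands for.

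Tumor necrosis factor, interleukin-1, interleukin-17 and bacterial products reach the transcription factor NF-kB through their receptors, adaptor proteins and the IkB kinases. NF-kB then switches on cytokines, chemokines and defense proteins, and also its own inhibitors, so that the response is limited by what it induces. In oral and other lining epithelia the genes Lcn2, Nos2 and Saa3 are known as late, strongly inducible members of this response, several of which also need C/EBP factors and the nuclear IkB protein encoded by Nfkbiz. Il6 encodes the cytokine that carries the signal on to STAT3.

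The DNA just upstream of a RefSeq start of the genes is shown here because control by NF-kB and C/EBP factors is known for several of them. RefSeq promoters on GRCm38.p6 were given for 8 of the 10 genes and covered 250 bases before the start. Nos2 and Nfkbiz had no entry. Both strands were searched for the kB decamer, the 10-base consensus that NF-kB dimers bind, and for the C/EBP octamer TTGCNNAA, so that a match can be written in either orientation. The decamer was present in 7.25% and the octamer in 9.56% of all 32851 promoters of this length. A kB decamer lay upstream of a start of 6 of the 8 genes and a C/EBP octamer upstream of 3. These counts are of genes with a match at any of their starts, whereas the percentages are of individual promoters, so the units differ. At the chosen start of each gene, a kB decamer was present for 5 of the 8 genes. Tmem176b was added through another of its starts, by the same decamer as Tmem176a. The genes were picked as inflammatory genes, so these counts are a description and not an enrichment, and a match of letters was not tested as a binding site.

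The kB decamer is in capitals in the 5 stretches that follow, each written 5′ to 3′ on the strand of the gene. The stretches of Nfkbia, Tnfaip3 and Il6 end at the base before the RefSeq start used and lie in no annotated exon. For Tnfaip3, Tnfaip2, Tmem176a and Lcn2 that start lies inside the gene span given below, and so does the stretch.
Nfkbia, chr12:55492648-55492797, minus strand: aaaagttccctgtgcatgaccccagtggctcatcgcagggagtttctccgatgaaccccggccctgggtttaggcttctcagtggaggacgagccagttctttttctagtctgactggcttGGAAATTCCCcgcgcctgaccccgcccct
Tnfaip3, chr10:19015411-19015547, minus strand: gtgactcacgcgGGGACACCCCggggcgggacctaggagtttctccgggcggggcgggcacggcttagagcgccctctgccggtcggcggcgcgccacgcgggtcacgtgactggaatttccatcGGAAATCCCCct
Il6, chr5:30012964-30013113, plus strand: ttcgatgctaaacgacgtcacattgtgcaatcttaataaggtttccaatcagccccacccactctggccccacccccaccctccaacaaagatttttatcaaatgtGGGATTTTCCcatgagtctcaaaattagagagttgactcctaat
Tnfaip2, chr12:111442627-111442656, plus strand: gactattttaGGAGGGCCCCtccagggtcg
Tmem176a, chr6:48841387-48841416, plus strand: gctgcctgctGGAAAACCCCtaaaggggcc

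The Tmem176a decamer at chr6:48841397-48841406 was also the decamer found upstream of a start of Tmem176b, which is transcribed from the opposite strand, and it lay in an exon of the transcript Tmem176b-211. The Tnfaip2 decamer lay in an exon of Tnfaip2-201. In the next pair of 30-base stretches the capitals mark the C/EBP octamer, which in Lcn2 lay in an exon of Lcn2-206 and in Saa3 in no exon.
Lcn2, chr2:32387937-32387966, minus strand: agcccttcctgTTGCTCAAccttgcacagt
Saa3, chr7:46715757-46715786, minus strand: ggtaagtgggaTTATGCAAgatcaaacagg
The third octamer lay upstream of Il6. No kB decamer of this consensus was present in the searched window of Lcn2 or Saa3, which says only that these letters are not in it.

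Levels are given as FPKM, fragments scaled to transcript length and to library size, which can be compared between genes. Of the 10 genes, 8 reached 1 FPKM in at least 1 line, and Saa3 and Il6 did not. The step between low FPKM values placed the libraries between about 28300000 fragments in AOC3-LN and 33800000 fragments in AOC3 and AOC11, and 14165 genes of the table reached 1 FPKM in at least 1 line. Where a fragment number or an interval of a ratio is given, it was estimated from that depth and the transcript length, and the interval is a 95% interval for counting error alone.

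Lcn2, on mm10 (GRCm38) at chr2:32384633-32388252 (ENSMUSG00000026822.14), encodes lipocalin-2, a secreted protein that binds the iron carriers of bacteria. Its level was 65.1 FPKM in AOC3 against 3.50 FPKM in AOC3-LN, and 33.2 FPKM in AOC11 against 10.3 FPKM in AOC11-LN. Both primary lines were above both lymph node lines. The level was 18.6-fold lower in AOC3-LN than in AOC3 (14.8 to 23.8) and 3.23-fold lower in AOC11-LN than in AOC11 (2.80 to 3.73). Estimated fragments numbered 1641, 75, 822 and 252 in the same order of lines.

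Nos2, at chr11:78920787-78960254 (ENSMUSG00000020826.8), encodes the inducible nitric oxide synthase, which makes nitric oxide from arginine. Its level was 22.3 FPKM in AOC3 against 0.551 FPKM in AOC3-LN, and 3.36 FPKM in AOC11 against 2.57 FPKM in AOC11-LN. AOC3 stood above the other lines, and AOC3-LN was below 1 FPKM on about 51 fragments. The level was 40.4-fold lower in AOC3-LN than in AOC3 (30.7 to 54.5) but 1.31-fold lower in AOC11-LN than in AOC11 (1.12 to 1.54). Between the primary lines the level was 6.62-fold higher in AOC3 than in AOC11 (5.93 to 7.40).

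Tmem176a and Tmem176b encode membrane proteins with 4 spans related to the MS4A family, known from the inner membranes of macrophages and dendritic cells. Tmem176a, at chr6:48840919-48847071 on the plus strand (ENSMUSG00000023367.14), had 24.9 FPKM in AOC3 against 0.357 FPKM in AOC3-LN, and 17.6 FPKM in AOC11 against 33.6 FPKM in AOC11-LN. Tmem176b, at chr6:48833818-48841496 on the minus strand (ENSMUSG00000029810.15), had 46.6 FPKM in AOC3 against 0.669 FPKM in AOC3-LN, and 31.1 FPKM in AOC11 against 56.6 FPKM in AOC11-LN. For both genes AOC3-LN was the low line and AOC11-LN the high line, so primary and lymph node lines overlapped.

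The level of Tmem176a was 69.9-fold lower in AOC3-LN than in AOC3 (41.4 to 128), on 14 fragments against 1156. That of Tmem176b was 69.7-fold lower (48.6 to 106), on 28 fragments against 2332. In mouse 11 the direction was the other way, with Tmem176a 1.90-fold higher (1.75 to 2.08) and Tmem176b 1.82-fold higher (1.71 to 1.94) in AOC11-LN than in AOC11. The genes overlap head to head over 578 bases at chr6:48840919-48841496, of which 81 bases are exonic in both genes, out of 3810 exonic bases of Tmem176a and 2371 of Tmem176b. The library kit keeps the strand, but the methods name default parameters, under which TopHat2 and Cufflinks treat a library as unstranded, so the values of the pair may share fragments of those 81 bases. The ratio of Tmem176b to Tmem176a stayed between 1.69 and 1.88 in the 4 lines.

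Nfkbia, at chr12:55489410-55492647 (ENSMUSG00000021025.8), encodes IkB-alpha, the inhibitor that holds NF-kB in the cytoplasm and is itself an NF-kB target. Its level was 96.9 FPKM in AOC3 against 34.5 FPKM in AOC3-LN, and 93.8 FPKM in AOC11 against 65.5 FPKM in AOC11-LN. The primary lines lay close together and above both lymph node lines. The level was 2.81-fold lower in AOC3-LN than in AOC3 (2.64 to 2.98) and 1.43-fold lower in AOC11-LN than in AOC11 (1.37 to 1.5).

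Nfkbiz, at chr16:55811375-55838899 (ENSMUSG00000035356.17), encodes IkB-zeta, a nuclear partner of NF-kB that some inducible genes, Lcn2 among them, are known to need. Its level was 31.8 FPKM in AOC3 against 14.8 FPKM in AOC3-LN, and 18.6 FPKM in AOC11 against 14.6 FPKM in AOC11-LN. AOC3 was the high line and the lymph node lines were nearly level. The level was 2.15-fold lower in AOC3-LN than in AOC3 (2.03 to 2.28) and 1.28-fold lower in AOC11-LN than in AOC11 (1.20 to 1.36).

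Tnfaip3, at chr10:19000910-19015657 (ENSMUSG00000019850.11), encodes A20, a ubiquitin-editing enzyme that shuts down signaling from the receptors. Its level was 9.72 FPKM in AOC3 against 7.85 FPKM in AOC3-LN, and 24.0 FPKM in AOC11 against 13.7 FPKM in AOC11-LN. Both mouse 11 lines were above both mouse 3 lines, the reverse of Nos2 and Nfkbiz in the primary lines. The level was 1.24-fold lower in AOC3-LN than in AOC3 (1.14 to 1.35) and 1.74-fold lower in AOC11-LN than in AOC11 (1.65 to 1.85).

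Tnfaip2, at chr12:111442469-111455018 (ENSMUSG00000021281.15), encodes a protein known for its part in membrane nanotubes. It was at 77.1 FPKM in AOC3 against 85.3 FPKM in AOC3-LN, and 40.4 FPKM in AOC11 against 30.4 FPKM in AOC11-LN. Both mouse 3 lines were above both mouse 11 lines. Tnfaip2 was the only one of the 8 genes that was higher in AOC3-LN than in AOC3, by 1.11-fold (1.08 to 1.14), and it was 1.33-fold lower in AOC11-LN than in AOC11 (1.27 to 1.39).

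Saa3, at chr7:46711998-46715700 (ENSMUSG00000040026.8), encodes a serum amyloid A protein made outside the liver. It was at 0.0918 FPKM in AOC3 against 0.0388 FPKM in AOC3-LN, and 0.169 FPKM in AOC11 against 0.0402 FPKM in AOC11-LN, about 0 to 2 fragments per library. All of these values were under the level that 3 fragments would give, 0.230 to 0.266 FPKM, so no order between lines could be read. The related genes Saa1, Saa2 and Saa4 were at most at 0.0686 FPKM in any line.

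Il6, at chr5:30013114-30019981 (ENSMUSG00000025746.11), was listed at 0 in AOC3, AOC11 and AOC11-LN and at 0.0874 FPKM, about 5 fragments, in AOC3-LN. A count of 0 allows up to about 0.0408 to 0.0424 FPKM in those 3 lines, where 3 fragments are taken as the limit. Il6 was thus not detectable at this depth in 3 lines and close to the limit in the fourth.

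**Figure D1:**
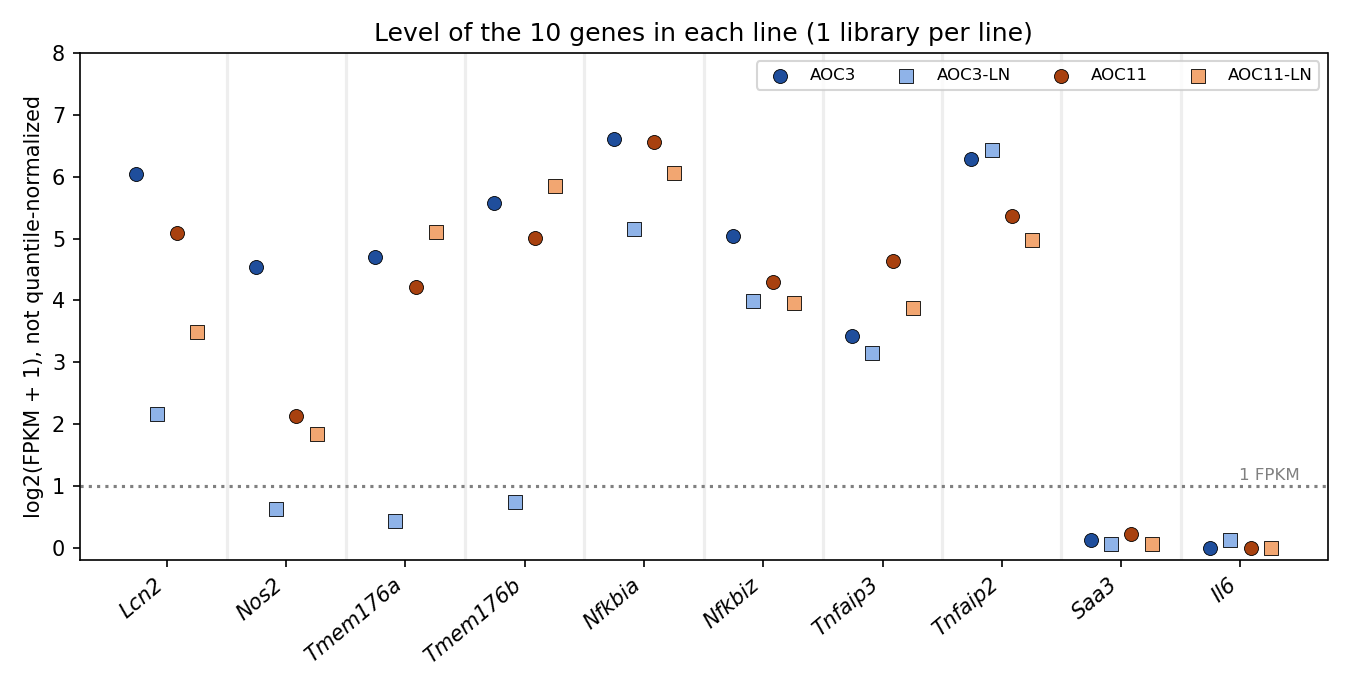
Level of each of the 10 genes in the 4 lines on a log2(FPKM + 1) scale before quantile normalization, with 1 point per line and library; circles are primary lines, squares lymph node lines, and the dotted line is 1 FPKM. Nos2, Tmem176a and Tmem176b of AOC3-LN lie below the line at 0.551, 0.357 and 0.669 FPKM, and all points of Saa3 and Il6 lie below it.

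**Figure D2:**
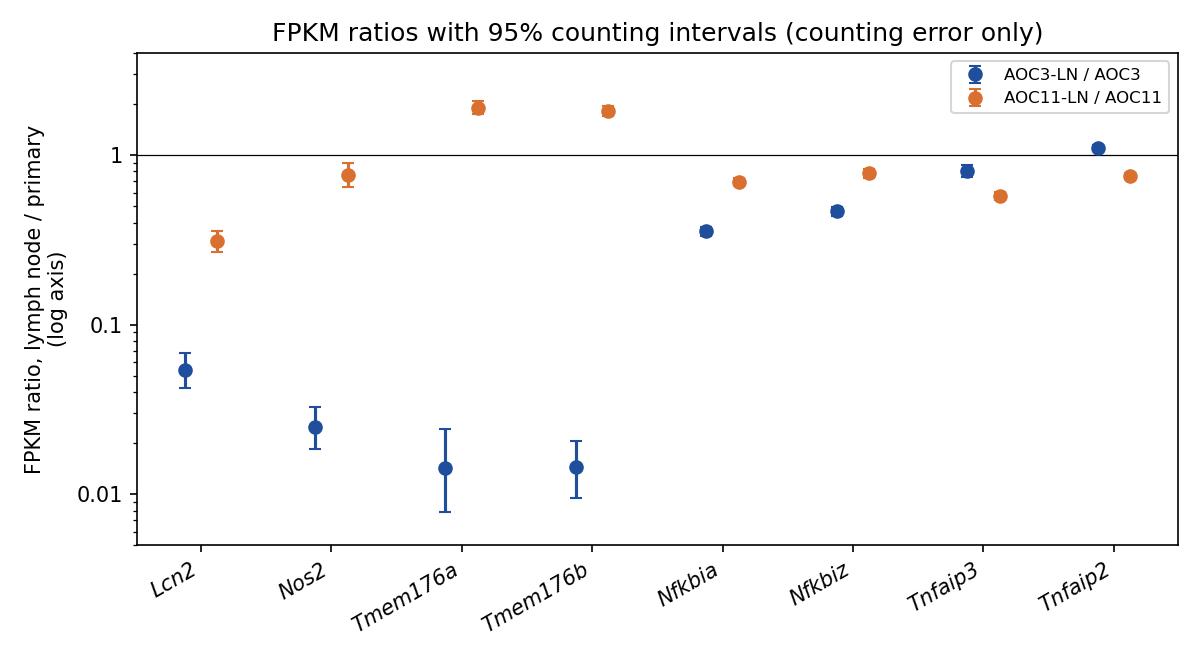
FPKM ratio of the lymph node line to the primary line of the same mouse for the 8 genes that reached 1 FPKM, on a log axis, with 95% intervals that cover counting error only. Lcn2, Nos2, Tmem176a and Tmem176b lie far below 1 in mouse 3, while Tmem176a and Tmem176b lie above 1 in mouse 11.

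The order of the lines differed between genes. In 4 of the 8 genes, Lcn2, Nos2, Nfkbia and Nfkbiz, both primary lines were above both lymph node lines, an order seen in 9.5% of the 14165 genes. None of the 8 had both lymph node lines above both primary lines, the order of 11.9% of genes. Both mouse 3 lines were above both mouse 11 lines for Tnfaip2 alone among the 8, and the opposite order held for Tnfaip3 alone. Each of these orders was seen in 26.7% of all genes. Tmem176a and Tmem176b followed neither order.

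To compare lines across all genes, FPKM values plus a pseudocount of 1 were put on the log2 scale and quantile-normalized, and a difference above 1 or below -1 was counted as past the threshold. The 4 comparisons share libraries, each line entering 2 of them. From AOC3 to AOC3-LN, 5 of the 8 genes were lower past the threshold and 0 were higher, with a median difference of -2.64. Over all 14165 genes 5.53% were past the threshold in either direction, 2.11% higher and 3.42% lower, and the median difference was 0.02. The genes were chosen with this comparison known, so nothing is read from the contrast between the shares.

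In that comparison the normalized difference was -4.80 for Tmem176b, -4.22 for Tmem176a, -3.86 for Nos2, -3.80 for Lcn2 and -1.47 for Nfkbia. Only 20 of the 14165 genes had a lower difference than Tmem176b, and 30 had a lower one than Lcn2. Nfkbiz lay just inside the threshold at -0.99, and past it at -1.03 with a pseudocount of 0.1 and at -1.05 without quantile normalization. The difference was -0.19 for Tnfaip3 and 0.10 for Tnfaip2.

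From AOC11 to AOC11-LN, 1 of the 8 genes was lower past the threshold and 0 were higher, with a median of -0.43. Of all genes 8.11% were past the threshold, 4.97% higher and 3.14% lower, with a median of -0.02. Higher genes made up 61.3% of those past it, and 71.2% without quantile normalization or 72.0% with scaling by the median. The gene past it was Lcn2 at -1.60, and 153 genes had a lower difference. Tmem176a at 0.93 and Tmem176b at 0.86 were under the threshold on the high side. The other 5 genes lay between -0.76 for Tnfaip3 and -0.32 for Nfkbiz. Lcn2 was the only one of the 8 past the threshold in the same direction in both mice.

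**Figure D3:**
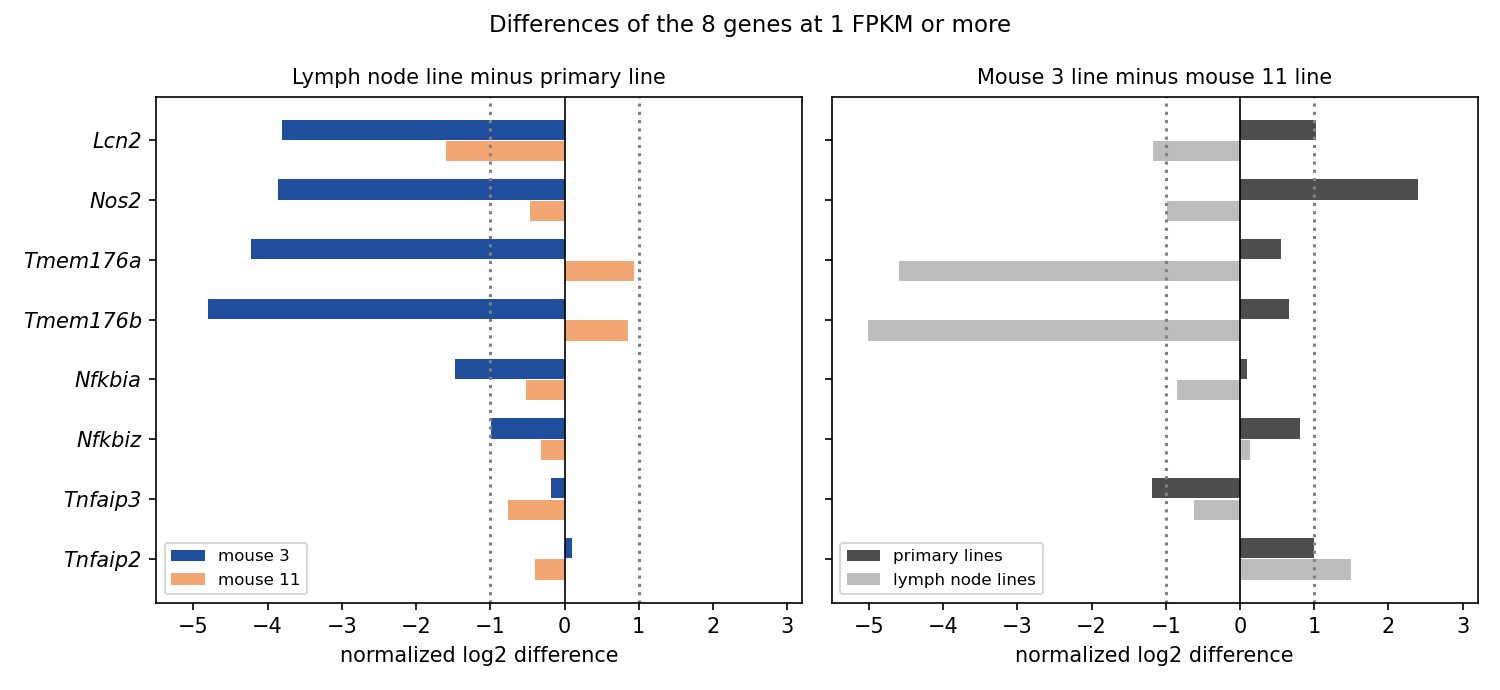
Normalized log2 difference of the 8 genes that reached 1 FPKM, as bars from 0, for the lymph node line minus the primary line in each mouse (left) and for the mouse 3 line minus the mouse 11 line at each tumor site (right), with dotted lines at 1 and -1. Lcn2 bars point left in both mice, at -3.80 and -1.60, whereas those of Tmem176a and Tmem176b point left in mouse 3 and right in mouse 11.

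Between the primary lines, AOC3 minus AOC11, 2 of the 8 genes were higher and 1 was lower past the threshold, with a median of 0.73. Over all genes 11.9% were past it, 6.25% higher and 5.69% lower. Nos2 was at 2.40, Lcn2 at 1.02 and Tnfaip3 at -1.19. The Lcn2 value was under the threshold, at 0.95, without quantile normalization. Tnfaip2 at 0.99 was just under it, and was past it at 1.01 with a pseudocount of 0.1. Nfkbia was nearly level, at 0.10.

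Between the lymph node lines, AOC3-LN minus AOC11-LN, 1 gene was higher and 3 were lower past the threshold, with a median of -0.92. The share of all genes was the largest of the 4 comparisons, 16.3%, with 7.58% higher and 8.69% lower. Higher genes made up 46.6% of those past it, and 34.0% without quantile normalization, where the median difference of all genes was -0.10 instead of 0.03. Tmem176b was at -5.01, Tmem176a at -4.60, Lcn2 at -1.17 and Tnfaip2 at 1.49. Nos2 stood at -0.99, and at -0.83 over protein-coding genes alone. It was past the threshold under 3 alternatives, at -1.68 with a pseudocount of 0.1, -1.20 without quantile normalization and -1.15 with median scaling.

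The other genes of the pathway were taken from 9 lists of 202 genes ordered by role, of which 131 reached 1 FPKM. From AOC3 to AOC3-LN, 2 of the 131 were higher and 22 lower past the threshold, 18.3% against 5.53% of all genes, with a median of -0.17. From AOC11 to AOC11-LN, 8 were higher and 18 lower, 19.8% against 8.11%, with a median of -0.17. Higher genes were 30.8% of these 26, and 42.3% of those called without quantile normalization or with scaling by the median. Between the primary lines 8 pathway genes were higher in AOC3 and 25 lower, 25.2% against 11.9% of all genes, and between the lymph node lines 15 were higher in AOC3-LN and 37 lower, 39.7% against 16.3%. The lists were chosen with earlier results of these data in view, so these shares are a description too.

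**Figure D4:**
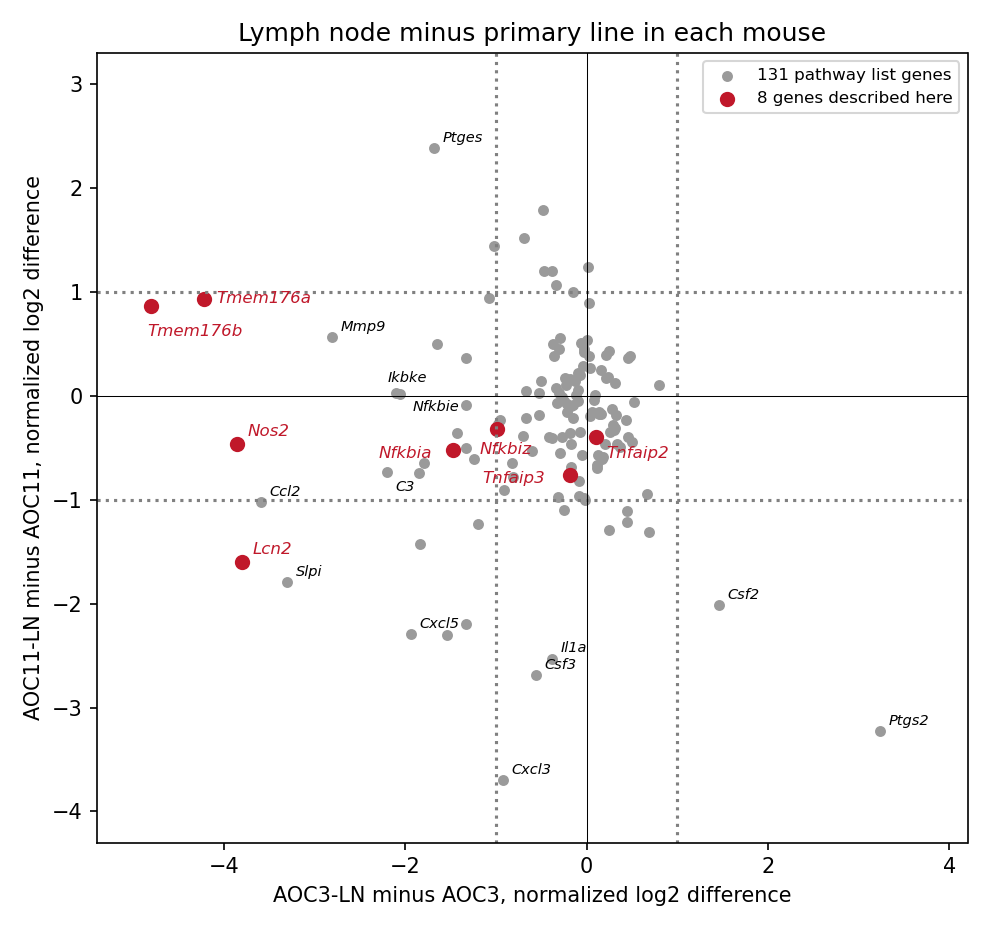
Normalized log2 difference of the lymph node line minus the primary line in mouse 11 (vertical axis) against mouse 3 (horizontal axis) for the 131 pathway genes (gray) and the 8 genes described here (red), with dotted lines at 1 and -1. Ccl2 and Slpi lie near Lcn2 on the low side of both axes, and Ptgs2 lies alone at 3.23 in mouse 3 and -3.22 in mouse 11.

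Of 24 upstream ligands, receptors and adaptors, 3 were lower in AOC3-LN than in AOC3 and 1 was lower in AOC11-LN than in AOC11, and 0 were higher in either. These are 12.5% and 4.17% of the list, against 5.53% and 8.11% of all genes. Tnf, the cytokine for which the Tnfaip genes are named, was low in every line and lower in both lymph node lines, with 2.23 FPKM in AOC3 against 0.324 in AOC3-LN, and 1.97 in AOC11 against 0.437 in AOC11-LN. Its differences were -1.20 and -1.23. Tnfrsf1b, a receptor of TNF, differed by -1.08 in mouse 3 and 0.95 in mouse 11. Traf5, an adaptor of such receptors, differed by -1.33 and 0.36.

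Of the main receptors, those that follow were under the threshold in both mice. For the low genes Il1r1 and Tlr2 the pseudocount of 1 narrows the difference. On FPKM without the pseudocount, Il1r1 was 5.05-fold lower in AOC3-LN than in AOC3 (3.17 to 8.26) and Tlr2 4.27-fold lower (2.87 to 6.54). In mouse 11, Il1r1 was 1.93-fold higher (1.55 to 2.41) in AOC11-LN than in AOC11 and Tlr2 1.76-fold lower (1.49 to 2.07). Tnfrsf1a, the chief TNF receptor, ranged from 19.4 to 42.3 FPKM and Il17ra, the shared IL-17 receptor chain, from 7.33 to 9.80 FPKM. Il17rc, its partner chain, was at 11.8 FPKM in AOC3 against 5.07 in AOC3-LN, and 31.0 in AOC11 against 25.2 in AOC11-LN, lower in both mouse 3 lines. Tlr4, the receptor for bacterial lipopolysaccharide, was at 2.40 to 3.42 FPKM, and Il1r1, the receptor of interleukin-1, at 0.136 to 1.28 FPKM. Tlr2, for bacterial lipoproteins, was at 0.370 to 4.43 FPKM, Tlr3, for double-stranded RNA, at 11.9 to 21.8 FPKM, and Ltbr, the lymphotoxin receptor, at 26.7 to 65.6 FPKM, each lower in both mouse 3 lines than in both mouse 11 lines.

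Among 19 kinases and NF-kB subunits, 2 were lower in AOC3-LN than in AOC3, Ikbke at -2.10 and Nfkbie at -2.06, and 0 were past the threshold in mouse 11. The shares of the list were 10.5% and 0%, against 5.53% and 8.11% of all genes. Ikbke encodes an IkB kinase relative and had 21.9 FPKM in AOC3 against 3.97 in AOC3-LN, and 13.2 in AOC11 against 13.6 in AOC11-LN. Nfkbie encodes IkB-epsilon, an inhibitor like that of Nfkbia, and had 8.07, 1.01, 18.3 and 18.2 FPKM in the same order. For both genes AOC3-LN was the low line, as it was for Tmem176a and Tmem176b. Nfkbid, another IkB gene, was low, with 0.0646 FPKM in AOC11 against 1.27 in AOC11-LN, about 4 and 77 fragments. It was 19.7-fold higher in AOC11-LN (7.43 to 74.5), which the pseudocount of 1 narrows to a difference of 0.89. In mouse 3 it was at 0.208 FPKM in AOC3 against 0.191 in AOC3-LN.

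The core kinases and the DNA-binding subunits were not past the threshold in either mouse. Chuk, Ikbkb and Ikbkg, the parts of the IkB kinase complex, differed by between -0.17 and 0.13. Rela, the main activating subunit, was at 45.6 FPKM in AOC3 against 53.5 in AOC3-LN, and 60.5 in AOC11 against 80.3 in AOC11-LN, so that it was slightly higher in both lymph node lines. Nfkb1, the gene of p105 and p50, was at 35.8, 19.2, 87.8 and 56.4 FPKM, with differences of -0.82 and -0.64. Relb, of the alternative pathway, was at 7.27 and 5.32 FPKM in the mouse 3 lines and 22.1 and 21.7 FPKM in the mouse 11 lines. Nfkb2, its partner, had the same split, with 29.8 and 27.0 FPKM in mouse 3 and 62.6 and 62.5 FPKM in mouse 11. Rel was at 1.83 FPKM in AOC3 against 1.48 in AOC3-LN, and 2.64 in AOC11 against 1.16 in AOC11-LN. Its difference in mouse 11, -0.99, lay just inside the threshold. Map3k7, the kinase TAK1 above the complex, was at 18.1 to 41.6 FPKM, and Map3k14, the kinase of the alternative pathway, at 4.13 to 11.3 FPKM.

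Of 17 negative regulators other than Nfkbia and Tnfaip3, 2 were lower in AOC3-LN than in AOC3. Birc3, a ubiquitin ligase of the TNF receptor complex, differed by -1.85 and Zc3h12a, an RNase that degrades inflammatory transcripts, by -1.24. Nlrc3 was lower in AOC11-LN than in AOC11 by 1.31 on the log2 scale. Past the threshold were 11.8% of the list in mouse 3 and 5.88% in mouse 11, against 5.53% and 8.11% of all genes. The remaining 14 were under the threshold in both mice. Among them Tnip3 was low, with 0.652 FPKM in AOC3 against 0.0509 in AOC3-LN, about 98 and 6 fragments. That is 12.8-fold lower (6.09 to 38.3), which the pseudocount of 1 narrows to a difference of -0.60. In mouse 11 it was at 1.78 FPKM in AOC11 against 1.33 in AOC11-LN.

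The list of inflammatory targets held the largest counts of the 9 lists. Of 26 targets, 10 were lower and 2 higher in AOC3-LN than in AOC3, with a median of -0.51, and 13 were lower and 2 higher in AOC11-LN than in AOC11, with a median of -0.95. The targets past the threshold were 46.2% and 57.7% of the list, against 5.53% and 8.11% of all genes. Ccl2, a chemokine for monocytes, was at 17.7 FPKM in AOC3 against 0.483 in AOC3-LN, and 6.50 in AOC11 against 3.04 in AOC11-LN, lower in both mice at -3.60 and -1.02. Mmp9, a matrix protease, had 46.8, 5.60, 11.1 and 16.9 FPKM, and like Nos2 it was highest in AOC3.

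Like Ccl2, Cxcl1 at -1.33 and -2.20 and Cxcl5 at -1.94 and -2.30 were lower past the threshold in both mice. So were Ccl20 at -1.54 and -2.30 and Csf1 at -1.84 and -1.43. The targets that follow were past the threshold in opposite directions or in mouse 11 alone. Ptgs2, the inducible cyclooxygenase, was at 4.91 FPKM in AOC3 against 53.2 in AOC3-LN, and 52.0 in AOC11 against 4.95 in AOC11-LN, with differences of 3.23 and -3.22. Cxcl3, a neutrophil chemokine, differed by -0.93 and -3.70, Csf3, the granulocyte growth factor, by -0.56 and -2.69, and Il1a, an interleukin-1 gene, by -0.38 and -2.53. For these 3 genes the larger difference was in mouse 11, where Nos2 differed by -0.47 and Nfkbia by -0.52.

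Of 27 further epithelial defense genes, 6 reached 1 FPKM. Slpi, a secreted protease inhibitor of mucosal surfaces, was at 43.1 FPKM in AOC3 against 3.18 in AOC3-LN, and 44.3 in AOC11 against 12.2 in AOC11-LN, and C3, the complement component, at 42.2, 8.01, 40.6 and 24.0 FPKM. Slpi was lower past the threshold in both mice, at -3.30 and -1.79, and C3 in mouse 3, at -2.20 against -0.74. The lysozyme genes Lyz1 and Lyz2 and the calprotectin gene S100a9 stayed below 1 FPKM in all lines. S100a8, the other calprotectin gene, reached 1.07 FPKM in AOC3-LN, against 0.827 in AOC3 and 0.197 in AOC11, and was listed at 0 in AOC11-LN.

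The IL-6 receptor chains were expressed although Il6 was not detectable in 3 lines. Il6st, the signaling chain, was at 11.3 to 20.5 FPKM, Il6ra, the binding chain, at 0.388 to 2.01 FPKM, and Stat3 at 11.1 to 19.2 FPKM. Of the 13 genes of this axis that reached 1 FPKM, 0 were past the threshold from primary to lymph node line in either mouse. The shares of all genes there were 5.53% and 8.11%. Between the primary lines 3 of the 13 were past it, 23.1% against 11.9% of all genes. Between the lymph node lines 6 were past it, 46.2% against 16.3%. Socs3, a feedback inhibitor induced by STAT3, was at 13.4 FPKM in AOC3 against 14.4 in AOC3-LN, and 7.34 in AOC11 against 4.82 in AOC11-LN.

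Nos2 was the only nitric oxide synthase gene above 1 FPKM, since Nos1 and Nos3 stayed below it in all lines. Of 12 other genes of arginine and nitric oxide metabolism, 2 were lower in AOC3-LN than in AOC3. Ass1, which makes arginine from citrulline together with Asl, differed by -1.34, and Ddah2, which breaks down inhibitors of nitric oxide synthase, by -1.43. In AOC11-LN against AOC11, Gchfr at 1.79 and Pts at 1.20 were higher and Gch1 at -1.10 lower, all of them genes of tetrahydrobiopterin, the cofactor of the enzyme. Genes past the threshold made up 16.7% of the 12 in mouse 3 and 25% in mouse 11, against 5.53% and 8.11% of all genes.

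Slc22a17 and Lrp2, the receptor genes of lipocalin-2, stayed below 1 FPKM in all lines. Of 9 genes of iron handling, 0 were past the threshold in mouse 3. In mouse 11 the iron exporter gene Slc40a1 was higher, at 1.07, and the heme oxygenase gene Hmox1 lower, at -1.21. That makes 0% and 22.2% of the 9 genes, against 5.53% and 8.11% of all genes. The transferrin receptor gene Tfrc differed by 0.67 in mouse 3 and -0.95 in mouse 11.

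Among genes near the Tmem176 pair on chromosome 6 and of the MS4A family, 5 of 25 reached 1 FPKM, and all of these 5 were neighbors on the chromosome. Repin1, 235 kb away, was at 2.43 FPKM in AOC3 against 0.579 in AOC3-LN, and 1.58 in AOC11 against 6.78 in AOC11-LN, and Zfp775, 211 kb away, at 0.817, 0.0809, 0.527 and 4.10 FPKM. In these zinc finger genes AOC3-LN was the lowest and AOC11-LN the highest line, as for Tmem176a and Tmem176b. Lrrc61, 263 kb away, had the same lowest and highest line, with 0.554, 0.207, 0.363 and 1.41 FPKM. Gimap9, 155 kb away and the nearest of the 5, had the same lowest line but was highest in AOC11, with 0.219 FPKM in AOC3, a value listed at 0 in AOC3-LN, 5.56 FPKM in AOC11 and 4.33 FPKM in AOC11-LN. Zfp467, 388 kb away, was at 1.80 FPKM in AOC11-LN and at most at 0.0422 FPKM in the other lines. Aoc1, 25.8 kb away, was at most at 0.0535 FPKM in any line. The share of all genes with AOC3-LN lowest and AOC11-LN highest was not counted, so nothing about this region is read from the shared order.

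The genes whose pattern over the 4 lines was most like that of Lcn2, by Euclidean distance between centered log2 values over 11372 protein-coding genes, were Ccl2 at 0.45, Slpi at 0.76, Ppp1r12b at 1.37, C3 at 1.40 and Csf1 at 1.44. For Nos2 they were Ccl2 at 0.79, Mmp9 at 1.10, Ptgs1 at 1.18, Prss27 at 1.21 and Atp1b1 at 1.33. For Tmem176b they were Cd81 at 1.02, Ptms at 1.68, Itgb5 at 1.73, Serpinh1 at 1.86 and Oasl2 at 1.95. Cd81, a tetraspanin gene, was at 80.1 FPKM in AOC3 against 6.13 in AOC3-LN, and 117 in AOC11 against 170 in AOC11-LN. The likeness rests on 4 libraries, and nothing about shared function or control is read from it.

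Lcn2, Nos2 and the Tmem176 genes are also expressed by macrophages, dendritic cells and neutrophils, so marker genes of other cell types were read beside them. The 10 epithelial markers summed to 2776 to 3596 FPKM, and 8 to 10 of them reached 1 FPKM in each line. The 18 macrophage and dendritic cell markers summed to 23.1 FPKM in AOC3 against 20.0 in AOC3-LN, and 34.8 in AOC11 against 18.1 in AOC11-LN, with 2 or 3 of the 18 at 1 FPKM or more and 6 to 8 at 0 in each line. Those at 1 FPKM or more in any line were Cd68, Csf1r, Cd14 and Flt3. Cd68 was at 4.45 to 13.0 FPKM and Cd14 at 6.27 to 8.55 FPKM, whereas the pan-leukocyte gene Ptprc was at most at 0.0640 FPKM. Adgre1, Tyrobp, C1qa, C1qb and C1qc, also among the 18 markers, were listed at 0 in all 4 lines.

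Csf1r was at 0.995 FPKM in AOC3 against 0.435 in AOC3-LN, and 20.8 in AOC11 against 6.01 in AOC11-LN, so it was lower in the lymph node line of both mice, as Lcn2 and Nos2 were, and highest in AOC11. The 5 neutrophil markers summed to 0.501 to 2.71 FPKM, nearly all of it Ly6g, and the 8 lymphocyte markers to 0.201 to 0.979 FPKM. The 10 fibroblast markers summed to 0.306 FPKM in AOC3 against 0.330 in AOC3-LN, and 1.30 in AOC11 against 4.77 in AOC11-LN, of which Postn made up 3.54 FPKM in AOC11-LN. The 5 endothelial markers summed to 0.328 to 0.481 FPKM. The part of these markers in the differences was not tested. In a bulk library, fewer expressing cells and less RNA per cell cannot be told apart.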

How the data were processed

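RNA of the 4 lines was sequenced as 1 paired-end, strand-keeping mRNA library per line. Per the labels and the study's methods, FPKM values were made by the authors with Cufflinks and the GENCODE M21 annotation at default settings, after Trim Galore trimming and TopHat2 alignment to mm10. The deposited FPKM values are not log2-transformed or quantile-normalized, and the table holds 34721 entries. FPKM values of short genes and of genes with several transcripts depend on the length correction, and multi-copy families may share fragments.

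Symbols, positions and transcript lengths came from GENCODE M21. Depth was estimated from the common step of low FPKM values of 9528 genes with 1 transcript over 800 bases. Between 63.2% and 66.6% of those values lay within 0.1 of a whole multiple, against 20% by chance, so whole reads could not be recovered for a count test. log2(FPKM + 1) was quantile-normalized over all entries, and genes with 1 FPKM or more in at least 1 line were compared (14165 genes, 11380 of them protein-coding). A log2 difference beyond 1 or -1 was counted as past the threshold; fold changes of low genes are understated on this scale. Each line has 1 library, so no p-value was computed. Intervals of ratios are Clopper-Pearson intervals from estimated fragments and cover counting error only.

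The 10 genes, the lists, the thresholds and the alternatives were chosen with earlier results of these data known. Named genes were the 10 genes; of each pathway list up to 6 genes past the threshold in either lymph node comparison, with receptors, kinases and subunits; the 5 genes nearest in pattern to Lcn2, Nos2 and Tmem176b; and markers of other cell types at 1 FPKM or more. Cxcl1, Cxcl5, Ccl20, Tnip3 and Nfkbid were named besides these. The pattern search was not run for Il6, which was below 1 FPKM in every line. Of the 202 pathway genes, 9 with no entry or with several entries were not analysed here. Calculations used Python 3.11.15, numpy 2.4.6, pandas 2.3.3 and scipy 1.17.1 and were tested on simulated data.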

Additional observations from a re-analysis of the deposited data

Results flagged for a closer look

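A difference whose direction was opposite in the 2 pairs of lines, beyond 1 on at least 1 side for the 10 genes and beyond 1 on both sides for pathway genes, was picked out for a closer look. These are single libraries, so the differences between pairs were not tested. The lymph node minus primary difference was -4.22 in mouse 3 and 0.93 in mouse 11 for Tmem176a, a gap of -5.15, and -4.80 against 0.86 for Tmem176b, a gap of -5.66. The same 4 values give gaps of 5.15 and 5.66 between the primary and the lymph node lines, where AOC3 minus AOC11 was 0.55 and 0.65 and AOC3-LN minus AOC11-LN was -4.60 and -5.01. Lcn2 differed by 1.02 between the primary lines and by -1.17 between the lymph node lines, a gap of 2.20. Nos2 differed by 2.40 and -0.99, a gap of 3.39.

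Among the pathway genes, Ptgs2 had the widest gap, 6.46 between the mice (3.23 and -3.22) and -6.46 between tumor sites (-3.15 and 3.31). Ptges, which acts after Ptgs2 in prostaglandin E2 synthesis, ran the other way with -1.68 in mouse 3 and 2.39 in mouse 11, a gap of -4.07. Csf2 differed by 1.46 and -2.01, a gap of 3.47, and Repin1 by -1.02 and 1.44, a gap of -2.47. Between the primary and then the lymph node lines, Mmp9 differed by 2.05 and -1.32, a gap of 3.38, and Ccl2 by 1.33 and -1.24, a gap of 2.57.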

How the results depend on the processing

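The lymph node minus primary differences are already taken within each mouse. A fit of tumor site with the mouse as a block was not run, since the genes were chosen on these values. The 8 genes' differences were recomputed under 6 alternatives in 4 comparisons, 192 values, of which 185 kept their direction and their side of the threshold, 1 went under it, 6 went past it and 0 changed sign. The count of all genes past the threshold was 1443, 2074 and 2636 with a pseudocount of 0.1 in AOC3-LN minus AOC3, AOC11-LN minus AOC11 and AOC3 minus AOC11, and 453 and 712 in the first pair of comparisons over protein-coding genes alone. At a threshold of 1.5-fold it was 1948, 3482, 4086 and 5095 in the 4 comparisons. Pathway genes past the threshold numbered 40 in AOC11-LN minus AOC11 with a pseudocount of 0.1, and 38, 46 and 55 at 1.5-fold in the first 3 comparisons. Of the 8 genes, 4, 6 and 7 were past 1.5-fold in the last 3. The cause of these shifts was not tested. The median difference of all genes in AOC3-LN minus AOC11-LN was -0.10 without quantile normalization instead of 0.03, and relative to it the Nos2 value of -1.20 was still past the threshold. Depth limits Saa3 and Il6, with 0 to 5 fragments per library, and the Tmem176a ratio of mouse 3, with 14 fragments in AOC3-LN.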
